A study of Mus musculus with 3 samples.

Results

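The mature, Cxcr2-high neutrophils of the bone marrow were examined at day 3 after burn/tenotomy, an injury that pairs a burn of the back with a cut through the Achilles tendon. In all, 396 cells of the 1855 in the bone marrow library belonged to this population, out of 9725 cells in 3 single-cell libraries. Each of the 3 tissues, bone marrow, blood, and the injured tendon region, gave 1 library from mice aged 10 weeks, which the methods describe as male C57BL/6J, and all of the mice were injured. Femurs were flushed for marrow, blood was taken as the mononucleated layer of a gradient, and enzymes were used on the tendon alone, so tissue, preparation, and library cannot be told apart. How many mice went into a library was not given in the sources. Without replicates no test was possible, no p-value is given, and each interval covers counting error only.

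Members were selected on measured values of the marrow cells. A member had 200 or more genes detected, no more than 20% of its UMIs (unique molecular identifiers, 1 per captured transcript) from mitochondria, held at least 5% of its UMIs in *S100a8* and *S100a9*, and held at least 5 *Cxcr2* UMIs per 10000. It also had at most 2 UMIs of the proliferation genes *Mki67* and *Top2a* and at most 1 UMI of *Csf1r*, the receptor that marks monocytes. Of the 1855 marrow cells, 1840 passed the first step, 1216 the *S100a8* and *S100a9* step, 413 the *Cxcr2* step, 412 the proliferation step, and 396 the *Csf1r* step. Members made up 32.6% of the 1216 marrow cells in the *S100a8* and *S100a9* range (Clopper-Pearson 95% interval 29.9 to 35.3). They held 5801891 UMIs in total, with 625 UMIs in the shallowest cell, a median of 14411.5, and 40795 in the deepest. The 356 Cxcr2-low marrow neutrophils met every other step but lay under the *Cxcr2* floor, and they had a median of 22596 UMIs per cell. The same rule found 315 cells in blood with a median of 8597 UMIs and 313 cells at the tendon injury site with a median of 3984. Median *Cxcr2* UMIs per cell were 16 in members, 15 in blood, and 5 at the tendon, where the floor rested on fewer counts. The limits on *Mki67*, *Top2a*, and *Csf1r* were not scaled to depth, so they were looser in shallow cells. No member shared a barcode with a cell of another library. Over the whole libraries, marrow shared 2 barcodes with blood and 1 with tendon.

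Neutrophils are made in the bone marrow through stages that fill successive kinds of granule. Azurophil granule proteases are transcribed first in promyelocytes, specific granule proteins such as lactoferrin next in myelocytes, and gelatinase granule proteins last in bands and segmented cells. Late cells gain CXCR2, the receptor for the chemokines that draw neutrophils into blood, while CXCR4 binds CXCL12 of the marrow stroma and holds them back.

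The 5 genes used to mark this population were all present in the members. *Cxcr2* was among the values that chose the members and stood at 1134 counts per 1000000 UMIs (CPM) in members (1107 to 1162), beside 227 CPM in Cxcr2-low cells. *S100a8* and *S100a9*, the subunits of calprotectin, also chose the members and stood at 188740 and 197446 CPM, beside 203988 and 207177 CPM in Cxcr2-low cells. The rule did not use *Csf3r* and *Retnlg*. *Csf3r*, the receptor for the granulocyte growth factor G-CSF, was detected in 96.2% of members, and its level was 396 CPM in members and 94.1 CPM in Cxcr2-low cells. *Retnlg*, a resistin-like secreted protein of neutrophils, was detected in 99.7% of members and stood at 34222 CPM, beside 5148 CPM in Cxcr2-low cells. In the 624 marrow cells below the *S100a8* and *S100a9* floor, *Csf3r* stood at 35.8 CPM and *Retnlg* at 19.1 CPM.

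The *Cxcr2* floor cut through a continuous distribution. The 3 cells just inside it held 5.00077, 5.00225, and 5.00782 *Cxcr2* UMIs per 10000, and the 3 just outside held 4.98369, 4.97512, and 4.93523. Within 1 UMI per 10000 of the floor there were 43 cells inside and 55 outside. A member held between 1 and 37 *Cxcr2* UMIs with a median of 16, so that single cells near the floor could fall on either side through counting error. The members ranged from 5.00077 to 45.8 *Cxcr2* UMIs per 10000 with a median of 11.3.

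**Figure D1:**
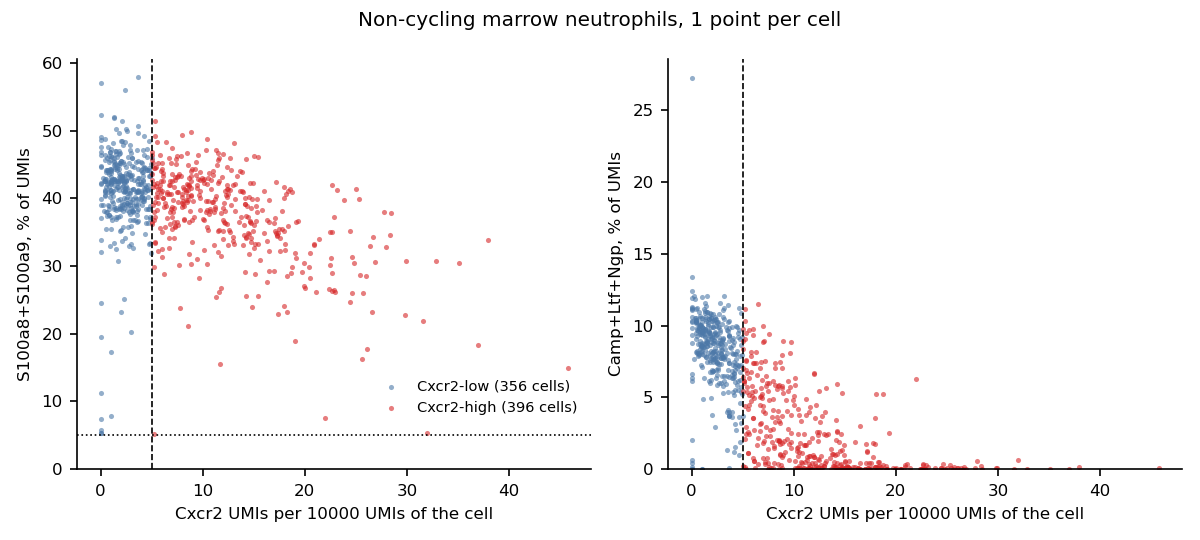
Each point is 1 of the 752 non-cycling marrow neutrophils, with *Cxcr2* UMIs per 10000 on the x axis and, on the y axis, the share of UMIs in *S100a8* and *S100a9* (left) or in the specific granule genes *Camp*, *Ltf*, and *Ngp* (right). The dashed line is the *Cxcr2* floor of 5 and the dotted line the floor of 5%. Members (red) continue the range of Cxcr2-low cells (blue) with no gap at the floor, and the share of *Camp*, *Ltf*, and *Ngp* lies near 0 in most members with more than 20 *Cxcr2* UMIs per 10000.

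Most markers of other cell types were at or near 0 in members. *Ly6c2*, a surface antigen shared by monocytes and immature neutrophils, and *Cd68* were exceptions. *Ly6c2* stood at 925 CPM in members and 1085 CPM in Cxcr2-low cells. The other 11 genes of the monocyte and macrophage list summed to 239 UMIs over all members, of which 172 were *Cd68*, and 14 members held 3 or more of them. *Cx3cr1* and *C1qc* had no UMI in members. The 7 B-cell genes summed to 168 UMIs, led by *Cd79a* at 7.93 CPM, and 2 members held 124 of the 131 UMIs of *Cd79a*, *Cd79b*, and *Ebf1*. The T-cell and natural killer list summed to 69 UMIs with 6 of 8 genes at 0, and 64 of these UMIs were *Cd3d*. The eosinophil, basophil, and mast cell list summed to 88 UMIs, led by *Ear2* with 59. The erythroid, platelet, progenitor, dendritic, and stromal or endothelial lists summed to 6, 9, 47, 59, and 25 UMIs.

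Cxcr2-high and Cxcr2-low marrow neutrophils differed by at least 2-fold in 915 of 5255 genes with 100 or more UMIs over both sets, the genes of the rule left out. Of these genes 473 (9.0%) were higher and 442 (8.41%) lower in members, and the median log2 ratio over all 5255 was 0.05. The list counts given below for these 2 sets stand beside these shares over all genes. The genes with the largest ratios upward were led by *Steap4*, a metalloreductase, and *Il1b*, the inflammatory cytokine interleukin-1β. Those downward were led by *Elane*, neutrophil elastase, and *Ms4a3*, a marker of granulocyte precursors. A gene that reached 100 UMIs only through the set in which it was high had to differ, so the counts describe these 2 sets of cells and are not evidence from independent samples. Both sets came from 1 library, and their depth per cell differed.

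*Steap4* had 140 UMIs in members and 0 in Cxcr2-low cells, which makes it at least 6.03 log2 units higher when the group at 0 is set to 3 counts. *Il1b* had 310 UMIs in members (53.4 CPM) and 3 in Cxcr2-low cells (0.37 CPM), a log2 ratio of 7.18 (5.62 to 9.46). *Ccl6*, a chemokine of myeloid cells, stood at 502 CPM in members and 18.1 CPM in Cxcr2-low cells, a log2 ratio of 4.80 (4.56 to 5.05). The lower limits of these 3 genes lay beyond 2-fold. *Gm5150* and *Sirpb1b*, related genes of the signal regulatory protein family, were 5.35 and 4.85 log2 units higher, although reads of such near copies can be shared between them in counting. *St3gal6*, a sialyltransferase that builds selectin ligands, was 5.33 log2 units higher, and *Tspan13* was 4.85 higher. *Cd244*, a receptor of the SLAM family, was 4.65 higher, *Nlrp3*, the inflammasome sensor, 4.53, and *Clec4d*, a C-type lectin receptor for fungal and mycobacterial glycans, 4.51. Each of these 10 genes stood at 18.1 CPM or less in Cxcr2-low cells.

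The promoters of *Cxcr2* and of the 3 genes with the largest upward ratio are shown, as the sequences next to the start sites of these genes. Each window is the 250 bases before the RefSeq transcription start on GRCm38.p6, written 5′ to 3′ on the gene's own strand. Capitals mark a match to TTGCNNAA, the half-palindromic core bound by C/EBP factors, or to GAGGAAGT, the core bound by PU.1, searched on both strands. The windows are chr1:74153744-74153993 (plus strand) for *Cxcr2*, chr5:7960222-7960471 (plus strand) for *Steap4*, chr2:129371140-129371389 (minus strand) for *Il1b*, and chr3:16006333-16006582 (minus strand) for *Gm5150*.
Cxcr2: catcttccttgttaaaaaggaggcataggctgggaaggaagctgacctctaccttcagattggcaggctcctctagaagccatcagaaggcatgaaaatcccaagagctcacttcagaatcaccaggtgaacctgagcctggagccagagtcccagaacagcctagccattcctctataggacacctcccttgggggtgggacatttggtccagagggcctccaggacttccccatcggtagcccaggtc
Steap4: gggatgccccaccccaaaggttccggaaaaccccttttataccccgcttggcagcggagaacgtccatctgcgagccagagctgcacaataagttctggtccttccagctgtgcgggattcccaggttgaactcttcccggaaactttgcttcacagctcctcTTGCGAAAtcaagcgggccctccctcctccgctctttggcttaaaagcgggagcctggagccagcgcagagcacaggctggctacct
Il1b: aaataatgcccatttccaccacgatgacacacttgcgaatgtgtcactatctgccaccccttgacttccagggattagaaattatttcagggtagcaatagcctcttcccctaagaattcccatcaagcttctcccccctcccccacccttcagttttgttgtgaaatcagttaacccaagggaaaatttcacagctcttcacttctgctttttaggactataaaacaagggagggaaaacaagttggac
Gm5150: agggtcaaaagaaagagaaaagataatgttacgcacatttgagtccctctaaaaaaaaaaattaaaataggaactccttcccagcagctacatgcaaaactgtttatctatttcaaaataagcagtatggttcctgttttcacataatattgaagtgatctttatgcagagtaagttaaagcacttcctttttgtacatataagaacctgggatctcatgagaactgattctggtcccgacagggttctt
The *Steap4* window held 1 match to TTGCNNAA, starting at -87 from the RefSeq start, and the other 3 windows held none. No window held GAGGAAGT. Of 32851 promoter windows of this length in the RefSeq table, 9.56% held TTGCNNAA and 2.44% held GAGGAAGT. A match is a description of letters and not of a bound site. The *Cxcr2* gene itself lies at chr1:74153989-74161246 on the plus strand, and *Il1b* at chr2:129364570-129371139 on the minus strand (GENCODE M21).

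**Figure D2:**
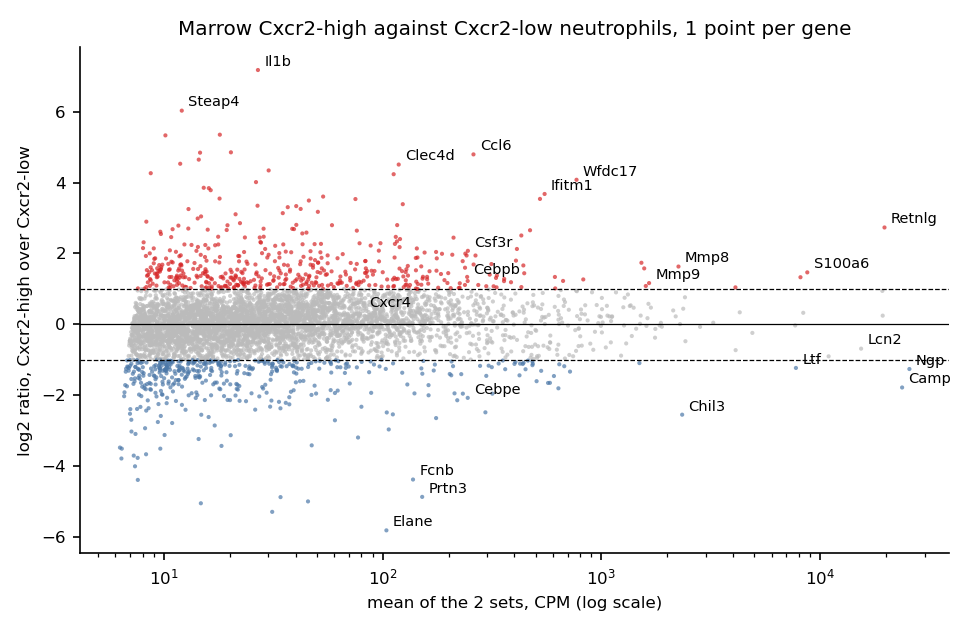
Each point is 1 of 5255 genes, with its mean level in both sets of marrow neutrophils in CPM (log scale) on the x axis and the log2 ratio of Cxcr2-high to Cxcr2-low cells on the y axis. Dashed lines mark 2-fold, 473 red points lie at or above the upper line and 442 blue points at or below the lower line, and *Steap4* is drawn at its lower limit.

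Transcripts of the granules separated by granule type. Of the 13 azurophil granule genes, 10 reached 100 UMIs, 7 of them were lower in members, and the median log2 ratio was -3.38. *Elane* stood at 204 CPM in Cxcr2-low cells and 3.62 CPM in members, a log2 ratio of -5.82 (-6.52 to -5.20). Its 21 UMIs lay in 21 different members. *Ms4a3* had a log2 ratio of -5.30, and *Prtn3*, proteinase 3, had a log2 ratio of -4.87. The 2 genes of this list that were higher in members were *Srgn* and *Ctsc*. *Srgn*, the proteoglycan core on which granule proteins are packed, stood at 732 CPM beside 129 CPM. *Ctsc*, which activates the proteases, stood at 22.4 CPM beside 10.7 CPM. *Fcnb* (ficolin B) had a log2 ratio of -4.38 and *Nkg7* of -5.05. The remaining genes among the 10 with the largest downward ratios were *Akap11* (-4.01), *RP24-484I1.3* (-3.79), *Snrpd1* (-3.77), *Anp32e* (-3.71), and *Lman1* (-3.67), each under 16 CPM in both sets.

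Specific granule genes were still abundant in members, and some of them were lower than in Cxcr2-low cells. All 15 genes of the list reached 100 UMIs, 6 were at least 2-fold lower, 9 lay within 2-fold, none was higher, and the median log2 ratio was -0.86. *Camp*, the cathelicidin precursor, was 36738 CPM in Cxcr2-low cells and 10659.8 CPM in members. *Ngp*, neutrophilic granule protein, was 36127 and 15046 CPM, and *Ltf*, lactoferrin, was 10872 and 4625 CPM. *Chil3*, a chitinase-like lectin, was 3998 and 681 CPM. *Lcn2*, which binds bacterial siderophores, stayed within 2-fold at 18994.5 and 11785 CPM, as did *Cd177* at 1010.1 and 979 CPM and *Pglyrp1* at 3196 and 3295 CPM. *Cybb*, the catalytic subunit of the NADPH oxidase, stood at 2033 and 951 CPM, whereas the other 6 genes of the oxidase list lay within 2-fold.

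Gelatinase granule genes ran the other way. Of 12 genes, 10 reached 100 UMIs, 6 were higher in members, 1 was lower, and the median log2 ratio was 1.18. *Mmp8*, neutrophil collagenase, stood at 1099 CPM in Cxcr2-low cells and 3402 CPM in members, a log2 ratio of 1.63 (1.59 to 1.67). *Mmp9*, gelatinase B, stood at 1020 and 2284 CPM, *Adam8* at 86.3 and 199 CPM, and *Timp2*, a metalloproteinase inhibitor, at 85.7 and 242 CPM. *Slc11a1*, the phagosomal metal pump, stood at 14.0 and 58.1 CPM. The integrin chains *Itgam* and *Itgb2*, which form Mac-1, were within 2-fold at 581 and 506 CPM in members. *Fcnb* was the 1 gene of the list that was lower.

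Receptors were described by family, with 9.0% of all genes higher and 8.41% lower for comparison. None of 4 measured Fc receptor genes differed by 2-fold, with a median log2 ratio of 0.48. Among the chemoattractant receptors other than *Cxcr2*, 2 of 7 measured genes were at least 2-fold higher and none was lower: *Fpr1*, the receptor for formylated bacterial peptides, at 227 CPM beside 73.1 CPM, and *Ccr1* at 358 beside 118 CPM. *Cxcr4*, the retention receptor, stood at 91.9 CPM in members (84.2 to 100.007) and 70.9 CPM in Cxcr2-low cells, a log2 ratio of 0.37 (0.20 to 0.55). A *Cxcr4* UMI was held by 67.7% of members and 75.3% of the deeper Cxcr2-low cells. After thinning to 1000 UMIs these shares were 9.16% and 8.43%, with overlapping intervals. *Cxcr1*, the other receptor for interleukin-8 type chemokines, had 6.2 CPM in members and 0 in Cxcr2-low cells and did not reach the count floor. Of the pattern recognition receptors 8 of 10 were higher, none was lower, and the median log2 ratio was 1.96. They included *Clec4d*, *Clec4e* (277 beside 76.3 CPM), *Tlr2* (53.9 beside 13.4 CPM), and *Tlr13*, a sensor of bacterial ribosomal RNA (73.4 beside 12.4 CPM). Of the cytokine receptors and related genes 8 of 14 were higher and none was lower. *Il1r2*, the decoy receptor for interleukin-1, stood at 187 CPM beside 67.5 CPM, and *Il4ra* at 86.0 CPM beside 26.1 CPM. *Ifitm1*, an interferon-induced transmembrane protein placed in the same list, stood at 1020 CPM beside 79.6 CPM. Adhesion genes were higher in 3 of 10 cases and lower in 1, beside 9.0% and 8.41% of all genes. The higher ones included *Selplg*, the main selectin ligand, at 422 beside 110 CPM, and *Amica1*, the junctional adhesion molecule JAML, at 98.8 beside 8.1 CPM.

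The list of 8 measured inflammatory ligands had 6 higher in members and none lower, with a median log2 ratio of 1.53. Besides *Il1b* and *Ccl6*, these were *Il1f9* (interleukin-36γ, 227 beside 61.5 CPM), *Nampt* (77.9 beside 23.4 CPM), *Il1rn*, the interleukin-1 receptor antagonist (47.7 beside 19.2 CPM), and *Osm* (oncostatin M, 31.9 beside 14.4 CPM). *Tnf* did not separate the sets, at 14.3 and 13.8 CPM. *Cxcl3*, *Cxcl1*, and *Il1a* had no UMI in members, and *Cxcl2* had 61. Interferon-stimulated genes were higher in 13 of 20 cases and lower in none, with a median log2 ratio of 1.23. *Ifi27l2a* stood at 226 CPM beside 21.5 CPM, *Oasl2* at 66.9 beside 6.8 CPM, and *Rtp4* at 62.7 beside 7.1 CPM. Antiprotease genes were higher in 9 of 12 cases. Over all genes the shares were 9.0% higher and 8.41% lower. *Wfdc17*, a small secreted protein of the whey acidic protein type, stood at 1453 CPM beside 85.9 CPM, and *Slpi*, the secretory leukocyte protease inhibitor, at 2344 beside 703 CPM. *Serpinb1a*, which inhibits elastase, was the 1 antiprotease that was lower, at 408 beside 1029 CPM.

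Transcription factors of granulopoiesis were mostly higher or within 2-fold in members. Of 19 measured genes 10 were higher and 2 lower, beside 9.0% and 8.41% of all genes. The share of lower genes was thus near that over all genes. *Cebpe*, the factor that drives specific granule genes, stood at 396 CPM in Cxcr2-low cells and 93.8 CPM in members, a log2 ratio of -2.08. *Cebpb*, the form of C/EBP linked to emergency granulopoiesis, stood at 99.9 and 384 CPM, a log2 ratio of 1.94. *Junb* (2.18), *Zeb2* (2.24), *Rara* (2.03), and *Hif1a* (1.78) also had positive log2 ratios, whereas *Spi1*, which encodes PU.1, lay within 2-fold at 399 and 568 CPM. *Myb*, a factor of proliferating precursors, was the other lower gene, at 12.3 and 5.2 CPM. Among survival genes 7 of 20 were higher and 1 was lower. *Mcl1*, on which neutrophil survival depends, stood at 649 CPM beside 239 CPM, *Fas* at 47.2 beside 10.8 CPM, and *Bax*, which promotes apoptosis, was the lower one at 4.8 beside 13.2 CPM. Of 48 measured genes in the study's maturation list of 50, 45 were at least 2-fold higher in members, none was lower, and the median log2 ratio was 1.65. That list holds genes linked to maturation in earlier work, and the study used it to score these cells, so it is not independent evidence.

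Other gene lists covered structure, metabolism, and translation. All 21 genes of the cytoskeleton and migration list lay within 2-fold with a median log2 ratio of 0.27, and *Actb* stood at 9304 CPM in members. Of 19 glycolysis genes 2 were higher and none was lower, near the shares over all genes, with a median of 0.06. The 2 that were higher were transporters, *Slc2a1* for glucose (23.4 beside 6.0 CPM) and *Slc16a3* for lactate (219 beside 86.5 CPM). Of 6 measured nuclear genes 4 lay within 2-fold, *Lmnb1* (lamin B1) was higher at 130 CPM beside 26.7 CPM, and *Hmgn2* was lower at 413 beside 939 CPM. Ribosomal protein genes, a group taken up after values had been seen, summed to 48010 CPM in Cxcr2-low cells and 26614 CPM in members. Of 82 measured genes 38 were at least 2-fold lower and 1 was higher, with a median log2 ratio of -0.95. Respiratory chain genes, also taken up afterwards, were lower in 12 of 64 cases and higher in none.

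Shares of cells with a UMI were compared after each cell was thinned to 1000 UMIs, which left out 3 members and no Cxcr2-low cell. At this depth 98.7% of members and 68.8% of Cxcr2-low cells held a *Retnlg* UMI, and 5.09% and 0% held an *Il1b* UMI (0 of 356 cells, where 3 counts would be 0.843%). *Camp* was found in 65.1% of members and 98.3% of Cxcr2-low cells, and *Mmp8* in 90.1% and 44.1%. Of 68 marrow cells below the *S100a8* and *S100a9* floor with 5 or more UMIs of the B-cell genes *Cd79a* and *Cd79b*, which had a median of 7017 UMIs, 2.94% held a *Retnlg* UMI, 8.82% a *Camp* UMI, and 1.47% an *Mmp8* UMI, and 0 held an *Il1b* UMI. *Steap4* was found in 3.05% of members, in 0 of 356 Cxcr2-low cells, and in 2.94% of these 68 cells (interval 0.358 to 10.2%). Without thinning, Cxcr2-low cells also held 0 *Steap4* UMIs. *Elane* was found in 1 of 393 members and 8 of 356 Cxcr2-low cells. The 68 cells gave no background for *Elane*, because 16 of them held 1276 *Elane* UMIs, and 10 held 1247 *Mpo* UMIs. The set chosen by *Cd79a* and *Cd79b* thus included cells with azurophil granule transcripts, which limits it as background for the other genes. *Cxcr4* was found in 9.16% of members, 8.43% of Cxcr2-low cells, and 11.8% of the 68 cells, and B cells express it. Without thinning, 18.9% of members held an *Il1b* UMI.

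**Figure D3:**
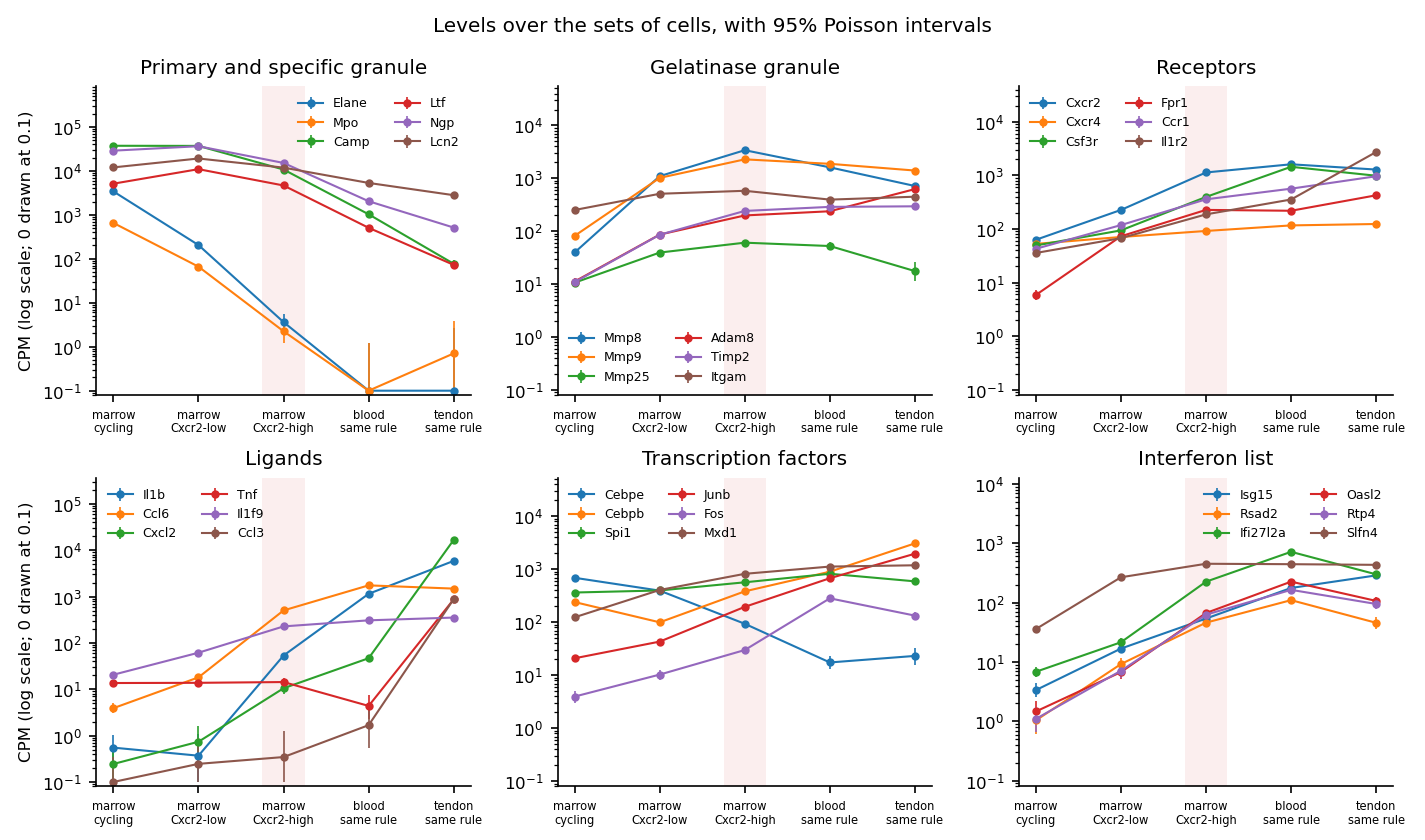
Levels of 36 genes in CPM on a log scale, with exact Poisson 95% intervals and a level of 0 drawn at 0.1, in cycling marrow neutrophils (427 cells), Cxcr2-low and Cxcr2-high marrow neutrophils, and the cells of the same rule in blood and tendon. The shaded column is the Cxcr2-high marrow set, in which *Elane* and *Mpo* are below 4 CPM, *Mmp8* has its highest level of the 5 sets, and *Il1b* and *Cxcl2* are still below 60 CPM.

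The genes that varied most among members included specific granule genes, S100 genes, secreted products, and noncoding RNAs. Variation was measured in the 388 members with at least 5000 UMIs, each thinned to 5000, as the ratio of the variance to the mean over cells, which is 1 for counting noise alone. Over 3165 genes with a mean of at least 0.1 UMIs the median ratio was 1.09, and 95 genes had a ratio over 2. *Camp* had a ratio of 70.9, with a median of 16 UMIs in 5000, 0 at the 10th percentile and 123 at the 90th. *Ngp* had a ratio of 66.6 and *Ltf* of 31.2. *Retnlg* had a ratio of 49.8 and ranged from 56.4 UMIs at the 10th percentile to 314 at the 90th. *Wfdc17* had a ratio of 44.4 with a median of 1 UMI and a highest value of 172, and *Ifitm1* a ratio of 27.7 with a median of 1 and a highest value of 76. *S100a9* (42.2), *S100a8* (28.5), and *S100a6* (18.3) were also among the 15 most variable genes, as were 4 stefin genes. The other 2 were noncoding: *Gm42418*, a locus that overlaps ribosomal RNA, had the highest ratio of all at 82.3, and *Malat1*, a nuclear RNA, had 24.4.

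*Camp*, *Ltf*, and *Ngp* varied together, and several genes that were higher in members than in Cxcr2-low cells varied against them. Over the 388 cells, *Camp* and *Ltf* had a Pearson correlation of 0.88, *Ltf* and *Ngp* 0.92, and *Camp* and *Cybb* 0.73. Against the sum of *Camp*, *Ltf*, and *Ngp*, the Spearman correlation was -0.76 for *Ccl6*, -0.70 for *Wfdc17*, -0.64 for *Retnlg*, -0.63 for *Csf3r*, and -0.50 for *Il1b*. It was 0.79 for *Lcn2*, 0.56 for *Cd177*, and close to 0 for *Mmp8* (0.19), *Mmp9* (0.13), and *Cxcr4* (0.14). For the noncoding RNAs *Malat1* and *Gm42418* it was -0.76 and -0.44. These cells share 1 library, the values of 1 cell sum to a fixed total, and the correlations are descriptions without a test. The sum also moved with the cell's depth before thinning (Spearman correlation 0.73 for *Ngp* and 0.70 for *Camp*), and *Gm42418* moved with depth in the other direction (-0.63). The part of depth and RNA quality in these relations was not tested.

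Splitting the 396 members into 3 sets of 132 cells by their share of UMIs in *Camp*, *Ltf*, and *Ngp* showed the size of this spread. This split was chosen after the variation had been seen. The granule-poor set held at most 0.29% of its UMIs in these genes, and the granule-rich set at least 2.81%. Median depth was 10126 UMIs in the granule-poor, 15326 in the middle, and 18014.5 in the granule-rich set, and median *Cxcr2* was 16.8, 11.3, and 7.36 UMIs per 10000. *Il1b* had 292 of its 310 UMIs in the granule-poor set, where it stood at 215 CPM, with 8.56 CPM in the middle and 0.41 CPM in the granule-rich set. *Ccl6* stood at 1535, 364, and 42.3 CPM in the same order, *Wfdc17* at 4409, 1054, and 142 CPM, and *Ifitm1* at 3004, 681, and 198 CPM. *Csf3r* stood at 914, 316, and 175 CPM, and *Retnlg* at 48814, 43727, and 18471 CPM. *Cebpe* ran the other way at 19.9, 44.8, and 174 CPM, as did *Chil3* at 71.4, 167, and 1434 CPM and *Lta4h*, the enzyme that makes leukotriene B4, at 13.3, 27.2, and 162 CPM. *Mmp8* (2877, 3770.0, and 3395 CPM) and *Padi4*, the enzyme that citrullinates histones (275, 351, and 290 CPM), had their highest level in the middle set. *Cxcr4* was nearly level at 83.9, 91.1, and 96.9 CPM, with a log2 ratio of the granule-rich to the granule-poor set of 0.21 (-0.12 to 0.54).

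The members were also split into sets of 132 by *Cxcr2*, the value that chose them. Median depth was 17462 UMIs in the lowest, 15388 in the middle, and 10498 in the highest set, and its part was not tested. From the lowest to the highest set, *Camp* stood at 17857, 8514, and 1982 CPM, *Il1b* at 11.2, 29.7, and 157 CPM, and *Csf3r* at 207, 326, and 807 CPM. *Mmp8* (3245, 3569.9, and 3418 CPM) and *Cxcr4* (98.0, 81.9, and 96.3 CPM) did not follow *Cxcr2*.

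**Figure D4:**
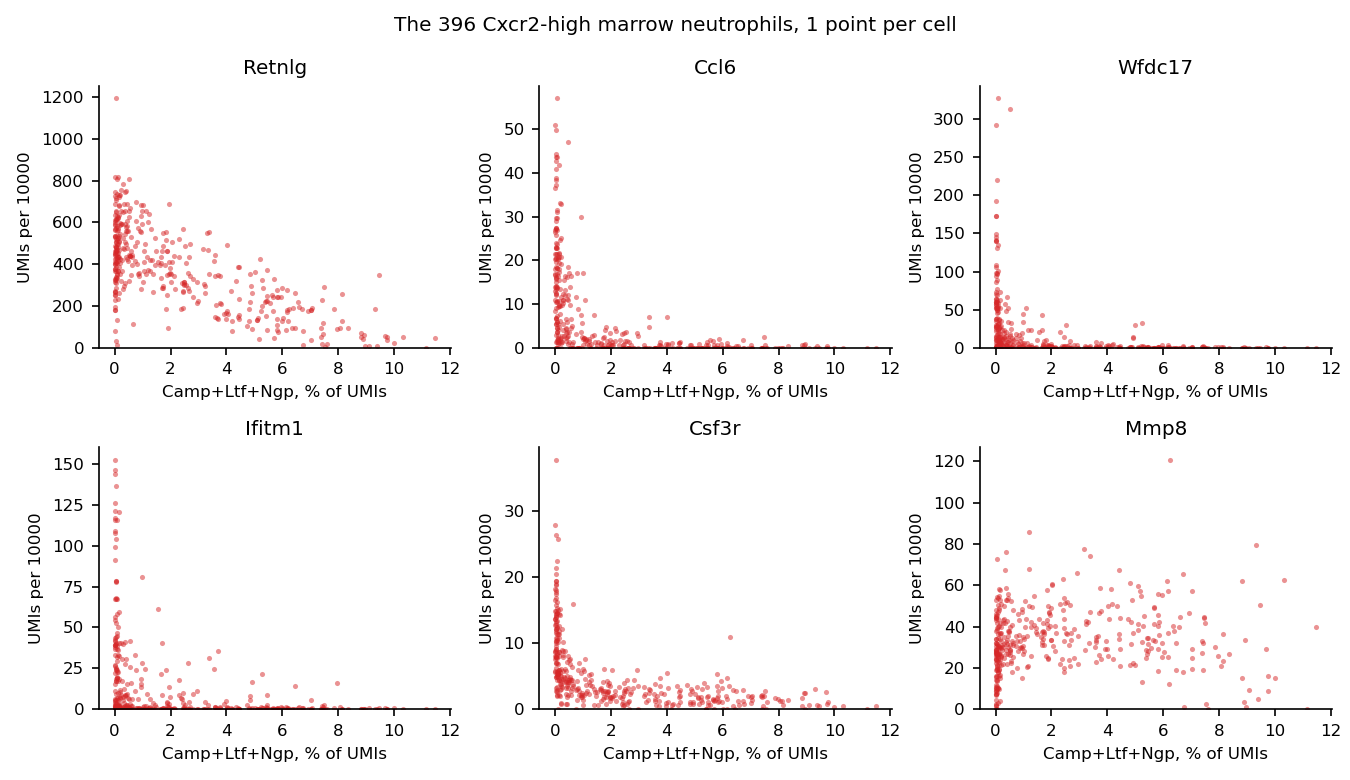
Each point is 1 of the 396 members, with its share of UMIs in *Camp*, *Ltf*, and *Ngp* on the x axis and UMIs per 10000 of 6 genes on the y axes. *Ccl6*, *Wfdc17*, *Ifitm1*, and *Csf3r* reach their highest values among cells near 0% on the x axis, *Retnlg* declines gradually from left to right, and *Mmp8* shows no such slope (Spearman correlation 0.19).

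Stefin genes, which encode inhibitors of cysteine proteases, were abundant in some members and at 0 in others. All 6 (*Stfa1*, *Stfa2*, *Stfa3*, *Stfa2l1*, *BC100530*, and *Gm5483*) lie on chromosome 16, between the start of *Stfa2l1* at 36156811 and the end of *Stfa3* at 36455392 (GRCm38). They are near copies of each other, so the division of reads between them is uncertain. *Stfa1* had 2306 UMIs but only 46 of 396 members held any, and the 10 highest members held 65.7% of them, up to 262 in 1 cell. *BC100530* was found in 61 members with up to 246 UMIs in 1 cell, and *Gm5483* in 134 members with up to 273. Pairs of these genes had Pearson correlations between 0.05 and 0.38 over cells. *Stfa1* had a Spearman correlation of -0.06 with the granule sum, so its spread did not run along the granule axis, while *Stfa2l1* had -0.31 and *Gm5483* -0.23. As sets, members were higher than Cxcr2-low cells in all 6 genes, from a log2 ratio of 1.38 for *BC100530* to 3.54 for *Gm5483*.

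Interferon-stimulated transcripts were low in most members and high in few. The 30 listed genes summed to a median of 16 UMIs in 5000 (10th to 90th percentile 9 to 33), with a highest value of 168. In Cxcr2-low cells the median was 9 and the highest value 65, and in blood the median was 23 and the highest value 158. Values of 50 or more were found in 9 of 388 members, 1 of 351 Cxcr2-low cells, and 37 of 293 blood cells, a cut made on a continuous score. Before thinning, the member with the highest sum held 22 *Isg15*, 19 *Rsad2*, 31 *Gbp2*, and 13 *Ifit3* UMIs, whereas the third highest held 69 *Ifi27l2a* but 5 *Isg15* and 0 *Ifit3* UMIs. *Isg15* and *Ifit3* had a Pearson correlation of 0.90 over members, of which 41 of the 44 *Ifit3* UMIs came from 10 cells, and a Spearman correlation of 0.42. *Isg15* and *Ifi27l2a* had 0.28 and 0.13.

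**Figure D5:**
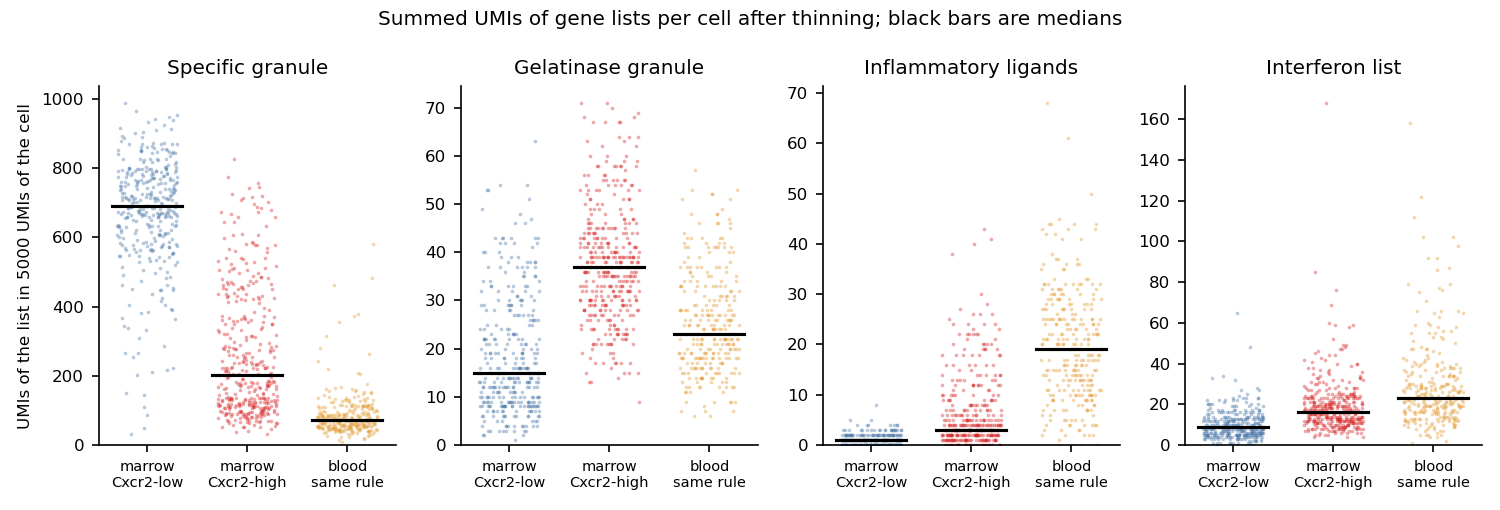
Summed UMIs of 4 gene lists per cell after thinning each cell to 5000 UMIs, in Cxcr2-low (351 cells), Cxcr2-high (388 cells), and blood neutrophils (293 cells), with medians as black bars. Members have medians of 201 UMIs for the specific granule, 37 for the gelatinase granule, 3 for the inflammatory ligands, and 16 for the interferon list, beside 72, 23, 19, and 23 in blood.

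*Acod1*, listed under its older symbol *Irg1*, encodes the enzyme that makes itaconate, the metabolite the study is about. It had 96 UMIs in members, 16.5 CPM (13.4 to 20.2), and 7 UMIs in Cxcr2-low cells, 0.86 CPM, a log2 ratio of 4.27 (3.17 to 5.62). UMIs were found in 60 members, with at most 6 in 1 cell. After thinning to 1000 UMIs, 2.04% of members held one. Of the 68 marrow cells chosen by *Cd79a* and *Cd79b*, 0 did, where 3 counts would be 4.41%. By the granule split it stood at 41.2 CPM in the granule-poor, 17.6 CPM in the middle, and 2.03 CPM in the granule-rich set. Of the 60 members with an *Acod1* UMI, 22 also held an *Il1b* UMI and 38 did not. Over all 396 members, 75 (18.9%) held an *Il1b* UMI, a lower share than among these 60. The part of depth in this overlap was not tested. Blood cells of the same rule had 67.9 CPM and tendon cells 2663 CPM.

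The blood cells of the same rule differed from the marrow members by at least 2-fold in 504 of 4246 genes, of which 285 (6.71%) were higher in blood and 219 (5.16%) lower. With *S100a8* and *S100a9* left out of the totals these counts were 207 and 298, and the median over all genes shifted by -0.17 on the log2 scale. Many specific granule genes were lower in blood than in members. Of 14 measured, 9 were lower and none higher, with a median log2 ratio of -1.88. *Camp* stood at 10659.8 CPM in members and 1024 CPM in blood, *Ltf* at 4625 and 505 CPM, *Ngp* at 15046 and 2029 CPM, and *Chil3* at 681 and 53.1 CPM. *Inhba*, the activin A subunit, had a log2 ratio of -3.62 and *Zmpste24*, a prelamin protease, of -3.36. *Abca13* (-3.25), *Serpinb1a* (-3.03), *Cd81* (-3.01), and *4930438A08Rik* (-3.85) completed the 10 largest decreases. Of 9 gelatinase granule genes 7 lay within 2-fold, 1 was higher, and 1 was lower, *Mmp8* at 1612 CPM in blood with a log2 ratio of -1.08.

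Higher in blood were *Il1b* (1145 CPM beside 53.4 CPM in members, a log2 ratio of 4.42), *Cd14*, a co-receptor for lipopolysaccharide (218 beside 18.6 CPM), and *Fgl2* (300.5 beside 26.4 CPM). *Fos* had 843 UMIs beside 174, a log2 ratio of 3.24. *Dusp1*, a phosphatase of stress kinases, stood at 778 beside 76.4 CPM, and 8 of 13 measured immediate early and stress genes were higher with none lower. *Apoe* (5.25), *Csf1* (3.52), *Gm26532* (3.41), *Igfbp6* (3.36), and *Prr5l* (3.06) were the remaining genes with the largest log2 ratios. In members they had 14, 17, 24, 40, and 64 UMIs. They passed the count floor only with the blood cells, which favours genes that are high there, so their ranks are a description. Markers of other cell types differed as well. The dendritic list summed to 10.2 CPM in members and 93.4 CPM in blood, led by *Cd74* at 5.69 and 46.4 CPM, with *Siglech*, *Flt3*, *Xcr1*, and *Cd209a* at 0 in both, and 1 blood cell held 51 of its UMIs in 5000. *Cd68* stood at 29.6 CPM in members and 62.9 CPM in blood. The monocyte and macrophage list summed to 966 and 430 CPM, of which *Ly6c2* made up 925 and 337 CPM. The T-cell and natural killer list summed to 11.9 and 41.7 CPM, with *Nkg7* at 0.86 and 12.4 CPM. The part of these markers in the blood ratios was not tested. *Csf3r* stood at 1447 CPM in blood beside 396 CPM, and the interferon list was higher in 13 of 25 cases and lower in none. Only 20 genes of the interferon list reached the count floor with Cxcr2-low cells, so some of the 25 passed it only with blood. *Gbp2*, with 88 UMIs in members and 248 in blood, was such a gene, and this favours genes that are high in blood. *Retnlg* was nearly level at 35888 CPM beside 34222 CPM, and all 21 cytoskeleton genes lay within 2-fold. *Cxcr4* stood at 117 CPM in blood beside 91.9 CPM. The granule-poor set of the members lay between the whole set and blood in several of these genes, with *Csf3r* at 914 CPM, *Ccl6* at 1535 CPM (1743 CPM in blood), and *Wfdc17* at 4409 CPM (7510 CPM in blood). *Fos*, at 56.0 CPM, and *Il1b*, at 215 CPM, were also above the whole set and below blood. Blood neutrophils were those that stayed with the mononucleated cells of the gradient.

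The tendon cells of the same rule were further from the marrow members. Of 3943 genes 677 (17.2%) were higher at the tendon and 656 (16.6%) lower. With *S100a8* and *S100a9* left out of the totals the counts were 464 and 1107, and the median over all genes shifted by -0.41 on the log2 scale. *Il1a*, *Cxcl3*, *Cxcl1*, *Nr4a3*, *Hilpda*, *Clec4n*, *Fosb*, *Il23a*, and *Icam1* had no UMI in members, and at the tendon they had between 102 and 1179 UMIs. With members set to 3 counts in all, *Cxcl3* was at least 10.65 log2 units higher and *Icam1* at least 8.10. *Ccl3* had 2 UMIs in members and 1253 at the tendon, a log2 ratio of 11.32 (9.47 to 14.37). *Cxcl2*, a ligand of CXCR2 itself, stood at 10.5 CPM in members, 46.7 CPM in blood, and 16678 CPM at the tendon. All 10 measured genes of NF-κB feedback were higher at the tendon, among them *Nfkbia* at 4885 CPM beside 168 CPM. Only 8 genes of this list reached the count floor with the blood cells, so some of the 10 passed it only with the tendon cells. Inflammatory ligands were higher in 13 of 16 cases and immediate early genes in 15 of 16. The ligands *Il1a*, *Cxcl1*, *Cxcl2*, *Cxcl3*, *Ccl3*, *Ccl4*, *Tnf*, *Csf1*, and *Spp1* and the immediate early genes *Fosb*, *Egr1*, *Atf3*, and *Dnajb1* had under 100 UMIs in members and passed the count floor only with the tendon cells, which favours genes that are high there, so these counts are a description. *Camp* (76.7 CPM), *Ltf* (72.5 CPM), *Ngp* (511 CPM), and *Serpinb1a* (13.4 CPM) were lower again. The histone genes *Hist1h2ap*, *Hist1h1e*, and *Hist1h4d* had 213, 736, and 243 UMIs in members and 0, 1, and 1 at the tendon. *F730016J06Rik*, *Slc17a9*, and *Usp5* were the remaining genes among the 10 largest decreases, with 0, 1, and 1 UMIs at the tendon. The stromal and endothelial list summed to 4.31 CPM in members and 113 CPM at the tendon, led there by *Col3a1* at 41.5 CPM, the dendritic list to 10.2 and 68.3 CPM, and the platelet list to 1.55 and 49.97 CPM. The monocyte and macrophage list summed to 966 and 423 CPM, with *Ly6c2* at 925 and 200 CPM and *Cd68* at 29.6 and 112 CPM. The part of these markers in the tendon ratios was not tested. Enzyme digestion at 37°C was used for the tendon alone, and its part in the immediate early genes was not tested.

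Over the 4 sets *Cxcr4* stood at 70.9 CPM in Cxcr2-low cells, 91.9 in members, 117 in blood, and 124 at the tendon, and the intervals of blood (105 to 130) and tendon (106 to 144) overlapped. *Tnf*, at 14.3 CPM in members, stood at 4.37 CPM in blood and 870 CPM at the tendon. *Tlr2* stood at 13.4, 53.9, 83.7, and 329 CPM in the same order, and *Cebpb* at 99.9, 384, 901, and 3085 CPM. Members sat between Cxcr2-low marrow cells and blood for *Camp*, *Ltf*, *Ngp*, *Il1b*, *Ccl6*, *Csf3r*, and *Cebpb*, and above both for *Mmp8* and *Mmp9*.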

How the data were processed

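The authors deposited raw UMI counts per gene and cell for the day 3 libraries, from Cell Ranger 5.0.1 (file headers) on mm10 (the submitters' processing notes), with no annotation named. The members and gene lists were chosen with earlier results of these data known. UMIs were summed over the cells of a set and scaled to 1000000 (CPM). CPM has exact Poisson, shares Clopper-Pearson, and ratios exact binomial 95% intervals. Of these, only the ratio intervals were tested on simulated counts, drawn as independent Poisson values. Such counts lack the clumping of UMIs in single cells, so the test does not show coverage for these data. A gene was called at 2-fold among genes with 100 or more UMIs over both sets, and ratios against 0 used 3 counts over the group. Genes named are the rule and marker genes, list members with the most UMIs or largest ratios, *Acod1*, *Cxcr4*, the 10 largest ratios each way (genes detected in 10% or more cells of the set where they were higher), and the 15 most variable genes. Shares and variation used cells thinned to 1000 and 5000 UMIs. Doublets were kept. The automatic threshold of Scrublet (scanpy 1.11.5) marked 1 of 1840 marrow cells, so it did not separate doublets, and removing the 27 highest scores, 4 of them members, was an alternative. Python 3.11.15, numpy 2.4.6, scipy 1.17.1, pandas 2.3.3, and matplotlib 3.10.9 were used. Positions came from GENCODE M21 by Ensembl identifier (725 of 727 matched). *Clec7a*, *Cebpd*, and the immunoglobulin and T-cell receptor constant genes of the lists were not analysed here. The other alternatives changed the rule's floors, the filters, the scaling, the weights, and the comparators.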

Additional observations from a re-analysis of the deposited data

How the results depend on the processing

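Only the 10 largest ratios each way in each comparison were repeated under other settings. Of these 720 repeats 543 stayed inside the counting interval and none changed direction. Genes picked for large ratios could hardly change direction, so this says little about direction. The other ratios given for single genes were not repeated. List medians moved by over 0.1 on the log2 scale in 298 of 1042 repeats, and shares of members with a UMI left their interval in 41 of 62 when cells were thinned to 500 or 2000 UMIs. Gene counts depend on the thresholds. In the order higher and lower in members than in Cxcr2-low cells, higher and lower in blood, and higher and lower at the tendon, they were 1023, 939, 723, 529, 1055, and 1111 at 1.5-fold, 106, 79, 46, 35, 289, and 174 at 4-fold, 710, 1198, 634, 573, 1240, and 1471 with a floor of 20 UMIs per gene, 213, 131, 111, 62, 264, and 165 with a floor of 500, and 104, 59, 66, 29, 205, and 86 after thinning cells to 1000 UMIs, where fewer genes reach the floor. With a *Cxcr2* floor of 10 per 10000 there were 230 members, 18.9% of marrow neutrophils, with 174 genes higher and 111 lower in blood and 409 lower at the tendon. With a floor of 2.5 members were 44.7% of marrow neutrophils and 406 genes were lower in blood. Without *S100a8* and *S100a9* in the totals 1107 genes were lower at the tendon, and against the 23 marrow cells with no *Cxcr2* UMI 1109 were higher in members. The cause of these shifts was not tested. The counts stayed within 1.5 times under stricter cell filters (393 members), removal of high doublet scores (392), and, chosen after seeing the data, removal of cells with B-cell UMIs (394). Of the 15 most variable genes, 14 remained after thinning to 2000 UMIs. Sums of few UMIs limit rare transcripts such as *Acod1*. No paired analysis was possible because each tissue has 1 library.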

Other observations

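In the marrow members *Gm42418*, *AY036118*, and *Lars2*, loci whose reads can come from ribosomal RNA, varied together: *Gm42418* and *Lars2* had a Pearson correlation of 0.81 over 388 cells. *Gm42418* stood at 13177 CPM in Cxcr2-low cells, 25317 CPM in members, 55214 CPM in blood, and 77855 CPM at the tendon, while the median depth per cell fell in the same order. *Malat1*, a nuclear RNA, stood at 4631, 11626, 22230.1, and 20239 CPM. These levels moved with the set and with depth, and their part in the other differences was not tested.

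*Hist1h2bc*, a histone H2B gene, was among the genes that were higher in the granule-poor members, at 163, 52.9, and 12.2 CPM from the granule-poor to the granule-rich set, and had a log2 ratio of 2.03 in members to Cxcr2-low cells and 1.92 in blood to members. It was named after its values had been seen. Of 8 measured clustered histone genes 2 were higher in members than in Cxcr2-low cells and none was lower, beside 9.0% and 8.41% of all 5255 genes.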
